A study of Mus musculus with 9 samples.

Results

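DNA replication and S phase genes were followed in CD135+ multipotent progenitors of mice. Members were given as a list of 34 genes, and 33 of them were found in the platform annotation; Chaf1a is not among its symbols and was not analysed here. Each gene was represented by the probe set, a group of short probes read as 1 value, with the highest mean over the 9 arrays. All 33 passed the filter on dim genes, among 11951 genes tested in the series, so the filter removed no member. Ccne2 exceeded the array median on all 6 knockout arrays and on 1 WT array, so it passed only through the knockouts, where it is high; it is counted below, and its values are a description. The choice used brightness alone and no difference between genotypes.

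The study compared 3 genotypes with 3 arrays each, wild-type (WT), E2A-/- and Lyl1-/-, all from bone marrow cells that lack lineage markers and carry CD117, SCA-1 and CD135. E2A proteins are basic helix-loop-helix factors encoded by Tcf3, and Lyl1 is a haematopoietic factor of the same class that pairs with them; the series title refers to Tal1, a relative of Lyl1. The labels call the samples of a genotype biological replicates and the design text calls them independent. The strain, the age and sex of the mice, the part of each gene removed and whether marrow of several mice was pooled are not given in the sources used here. Values are linear array intensities, differences are on the log2 scale, and an SE is that of the fitted difference.

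Before S phase, the origin recognition complex, Cdc6 and Cdt1 load the ring of Mcm2 to Mcm7 onto origins, a step called licensing. Cyclin E with Cdk2 and the kinase Cdc7 then trigger firing, in which Cdc45 and the GINS complex join the ring to make the active helicase, and polymerases, clamp and clamp loader follow. Many of these genes are switched on by E2F factors late in G1, so their transcripts mark cells entering or passing S phase. Multipotent progenitors divide more often than stem cells do, and their replication genes are active.

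The arrays differed in ways that touch these genes. WT 1 and WT 3 were far closer than any other pair (robust spread of the log2 difference at bright probe sets 0.0827, against 0.193 to 0.375), so their mean entered the fit as 1 sample; WT then had n = 2, and each knockout n = 3. The next closest pair, Lyl1-/- 1 and 2 (0.193), had 6 probe sets over 2-fold apart, against 0 for WT 1 and WT 3. Every other pair had 77 or more. Lyl1-/- 1 and 2 were kept as 2 samples, as labelled. The ratio of 3-prime to 5-prime actin signal, which rises when RNA is broken or copied short, was 10.6 on WT 2 and 10.1 on E2A-/- 2, and 2.85 to 4.23 on the other 7 arrays. Lyl1 read 79.2 to 92.0 on the Lyl1-/- arrays against 1352 to 1443 in WT, whereas the Tcf3 probe set (164 to 205 in WT, 121 to 193 in E2A-/-) left the E2A-/- labels unchecked. The gate genes Kit and Flt3 were read on all arrays, and no probe set carries the symbol Ly6a. Kit read 465 to 508 in WT, 327 to 493 in E2A-/- and 314 to 397 in Lyl1-/- cells, so all Lyl1-/- arrays lay below WT. Flt3 read 1052 to 1302, 863 to 1217 and 672 to 1136 in the same groups. Medians of 6 progenitor genes relative to the WT mean were 0.16, -0.53 and -0.34 on the E2A-/- arrays. On the Lyl1-/- arrays they were -0.16, -0.098 and -0.20. Hba-a1 (60.7 to 69.9) and Cd79a (68.5 to 75.1) lay near background, but not every erythroid or B lineage gene did. Cd79b read 155 to 319. The 9 tested erythroid genes had medians relative to the WT mean of 0.26, 0.070 and 0.90 on the E2A-/- arrays. On the Lyl1-/- arrays their medians were -0.0997, -0.33 and -0.083. The 11 tested of 16 mature granulocyte and monocyte markers summed to 2220 to 2946 on the WT arrays and to 2448, 18185 and 20784 on the E2A-/- arrays. On the Lyl1-/- arrays they summed to 2481 to 4283. Xist, read from the inactive X chromosome, was high on E2A-/- 2, Lyl1-/- 1 and Lyl1-/- 2.

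No member passed the threshold of 0.05 in any comparison by limma adjusted over all tested genes, where 0.226% of genes passed in E2A-/- against WT, 0.192% in Lyl1-/- against WT and 0.117% between the knockouts. The smallest adjusted p of a member was 0.238 in E2A-/- cells (Ccne2), 0.198 in Lyl1-/- cells (Mcm7) and 0.29 between the knockouts (Mcm7). With a filter on all 9 arrays, which drops Ccne2, the smallest limma adjusted p in E2A-/- cells was 0.41 (E2f2). Ccne2, which entered the test only through its high knockout values, is among the members counted next as higher in each knockout. With an unadjusted p under 0.05 stood 5 members in E2A-/- cells, all higher than WT (background 8.59% of genes in either direction, 3.22% higher and 5.36% lower). In Lyl1-/- cells 4 stood higher and 1 lower (8.79% of genes in either direction, 3.78% higher and 5% lower). Between the knockouts 1 was higher in E2A-/- than in Lyl1-/- cells and 1 lower (background 8.65%, 3.85% higher and 4.8% lower).

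The list as a whole lay close to WT. The median difference was 0.020 in E2A-/- and 0.078 in Lyl1-/- cells, against -0.013 and -0.0048 over all tested genes, and 20 and 24 of the 33 members had a positive difference (46.3% and 48.6% of all tested genes did). Between the knockouts 10 of 33 were positive, at a median of -0.043 (47.3% of all tested genes). Both comparisons use the same WT samples, so the second count is no repeat of the first. The 95% interval of the difference lay within 0.5 of 0, a change of less than 1.41-fold, for 16 members in E2A-/- cells and for 14 in Lyl1-/- cells (60.1% and 59.7% of all tested genes), and between the knockouts for 19 (68.6%). For the other members a change of that size is compatible with the data, and a p that misses the threshold does not show that the values were equal. In sorted bulk cells, fewer cells in S phase and less transcript per cell cannot be told apart.

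**Figure D1:**
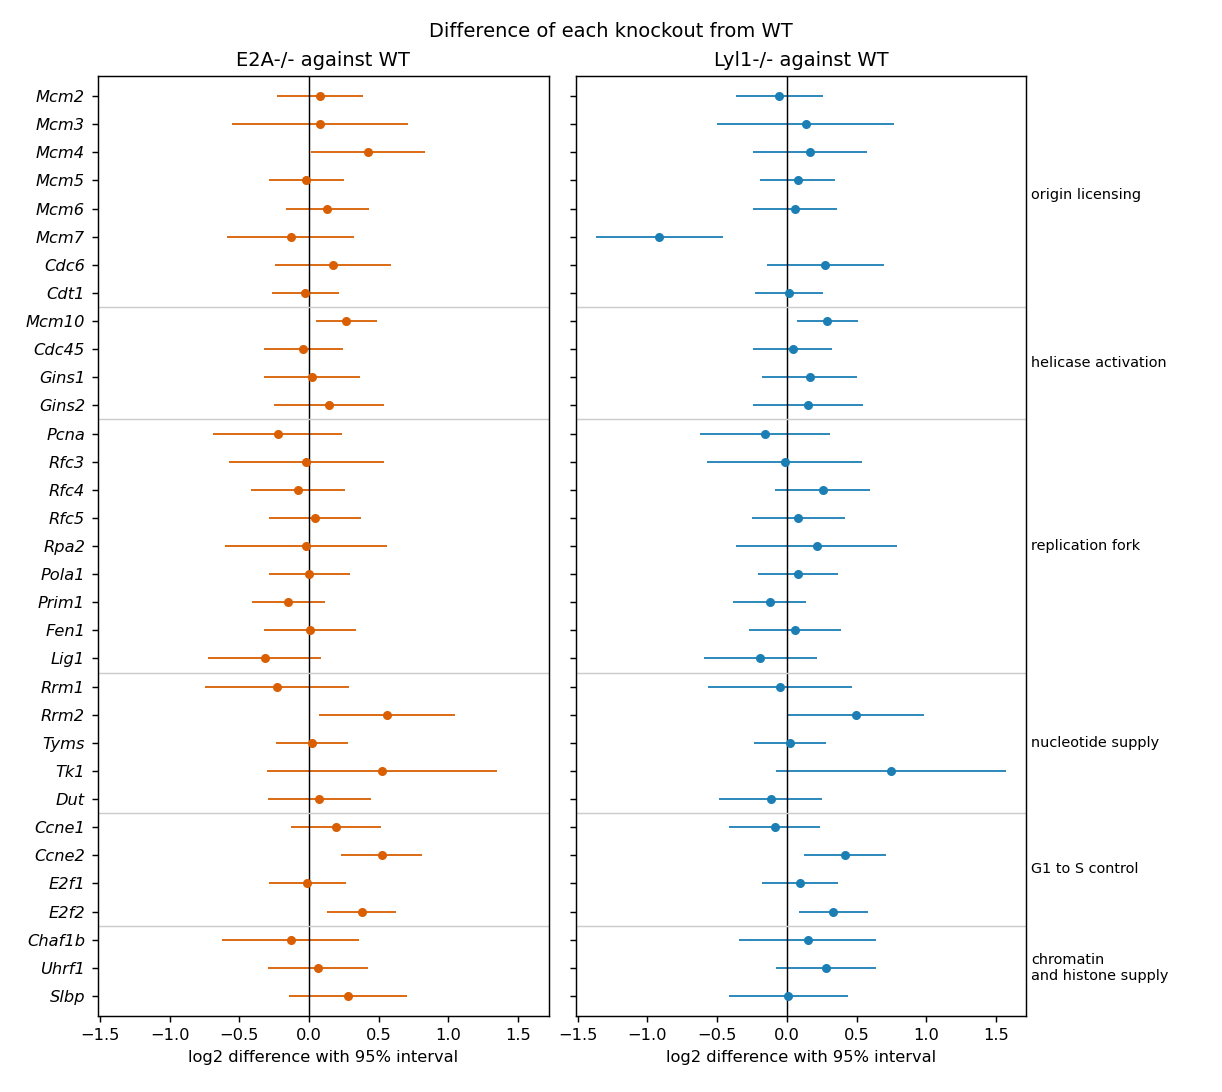
Log2 difference of each knockout from WT (horizontal axis) for the 33 members, grouped by role; points are fitted differences and bars 95% intervals from limma (WT n = 2 samples, knockouts n = 3). Most bars cross 0; Mcm7 in Lyl1-/- cells, at -0.91, stands farthest from it, and no member passed the threshold over all genes.

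For some members the knockout and WT arrays did not overlap, 3 arrays against 3. In E2A-/- cells this held for 5 members, all higher: Ccne2, E2f2, Mcm10, Mcm4 and Slbp (17.8% of all tested genes lay apart, 7.46% higher and 10.4% lower). In Lyl1-/- cells it held for 10 members (22.1% of all tested genes), 7 higher and 3 lower (9.91% and 12.2%). The higher ones were Ccne2, E2f2, Mcm10, Rrm2, Cdc6, Rfc4 and Uhrf1, and the lower ones Mcm7, Prim1 and Lig1. Ccne2, E2f2 and Mcm10 were apart and higher in both, 3 of the 33, against 2.84% of all tested genes. Both comparisons use the same WT arrays. Ccne2 entered these counts only through its high knockout values, which leaves E2f2 and Mcm10. Between the knockouts only Mcm7 was apart, higher in E2A-/- cells (12.2% of all tested genes, 5.73% higher and 6.46% lower).

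**Figure D2:**
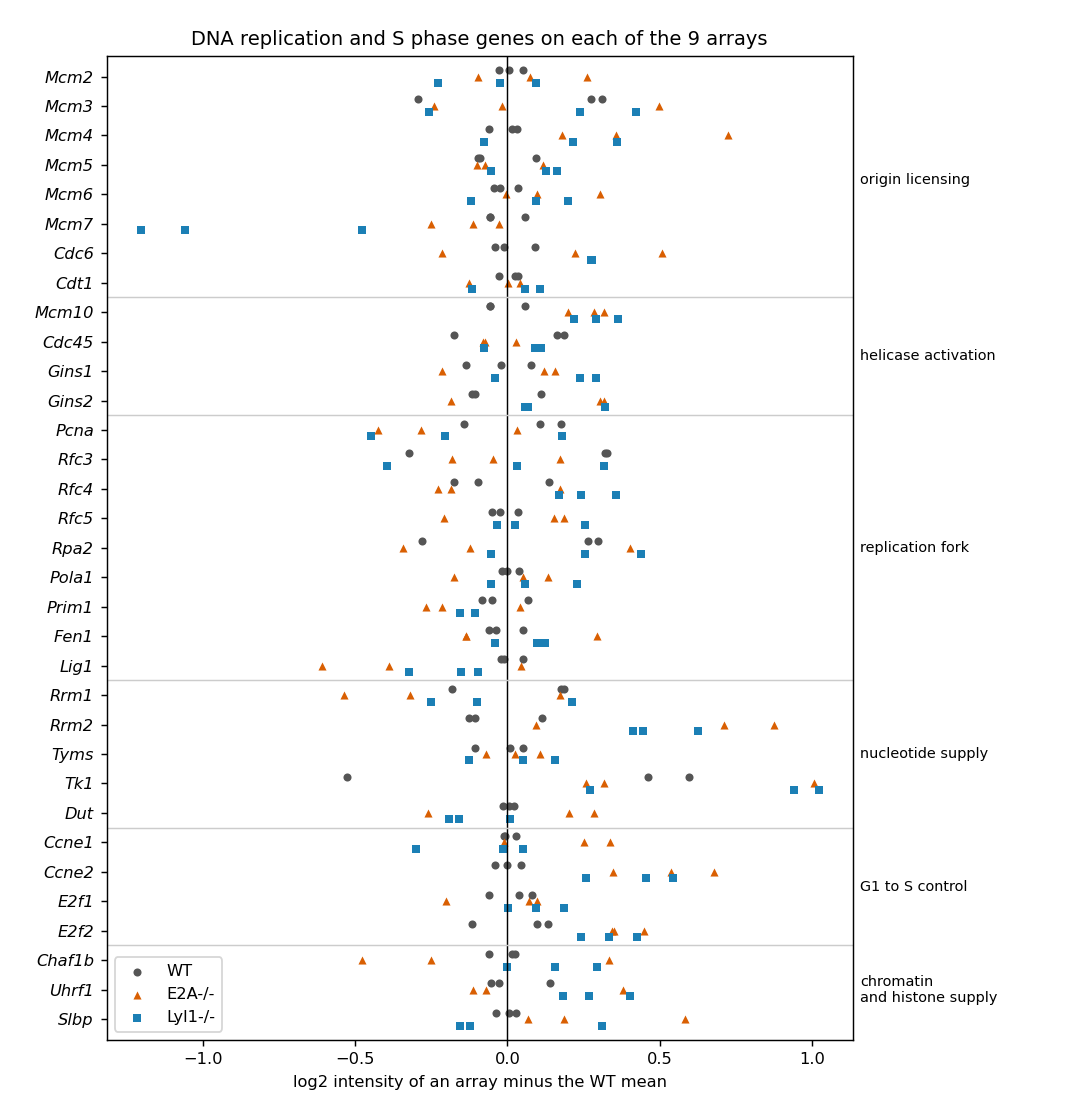
Log2 intensity of each array minus the WT mean (horizontal axis) for the 33 members, grouped by role; each symbol is 1 array, circles WT, triangles E2A-/-, squares Lyl1-/-. The 3 Lyl1-/- arrays of Mcm7 lie left of all others in its row, and in the rows of Ccne2, E2f2 and Mcm10 the 6 knockout arrays lie right of the WT arrays.

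Of the 8 origin licensing genes, 1 had E2A-/- arrays apart from and above WT, Mcm4 (7.46% of all tested genes). In Lyl1-/- cells 1 was apart and higher, Cdc6 (9.91%), and 1 apart and lower, Mcm7 (12.2%). None passed the threshold, and the median difference of the 8 was 0.079 in E2A-/- and 0.068 in Lyl1-/- cells. Mcm7 is a subunit of the hexameric helicase ring. Its intensity was 5020.0, 5430.1 and 5023 in WT, 4824, 5121 and 4386 in E2A-/- and 2504, 2265 and 3749 in Lyl1-/- cells. The Lyl1-/- arrays lay below all others, with Lyl1-/- 3 nearest to WT, and the E2A-/- arrays overlapped WT. The difference in Lyl1-/- cells was -0.91 (SE 0.198), with a 95% interval of -1.37 to -0.46 and a limma adjusted p of 0.198, and in E2A-/- cells -0.13 (SE 0.198). Without Lyl1-/- 3 the limma adjusted p became 0.0172 at a difference of -1.13. That fit rests on Lyl1-/- 1 and 2, the closest pair after WT 1 and WT 3, whose spread may be small for separate samples. The limma adjusted p was 0.0459 with array weights and 0.0495 when WT 1 and WT 3 entered separately. Over all the alternatives it ran from 0.0172 to 0.889. Between the knockouts Mcm7 differed by 0.78 (SE 0.177), with an adjusted p of 0.29, or 0.0248 without Lyl1-/- 3. The lowest 2 arrays, Lyl1-/- 1 and 2, also carried Xist signal, as did E2A-/- 2, which read 5121; with sex as a covariate the difference was -0.75 (limma adjusted p = 0.415). Granulocyte and monocyte genes and Flt3 also differed between these arrays. The 12 granulocyte and monocyte progenitor genes had medians of 1.01, 0.93 and 0.014 relative to WT on Lyl1-/- 1, 2 and 3, with sums of 16877, 15665 and 7608 against 8513 to 13147 in WT. The mature list stood at 0.66, 0.62 and -0.14, and Flt3 read 672, 742 and 1136 on these arrays. Their part in the Mcm7 values was not tested.

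The other 3 Mcm7 probe sets did not repeat this difference. Probe set 1439269_x_at read 1597, 1925 and 1446 in WT, 1579, 1805 and 1494 in E2A-/- and 1429, 1498 and 1489 in Lyl1-/- cells, a difference of -0.22 in Lyl1-/- cells. On 1416031_s_at the values were 908, 584 and 828 in WT, 917, 587 and 681 in E2A-/- and 788, 816 and 715 in Lyl1-/- cells, and the difference was 0.12. The dimmest, 1416030_a_at, gave 680.1, 266 and 653 in WT, 733, 416 and 449 in E2A-/- and 624, 617 and 449 in Lyl1-/- cells, a difference of 0.40. On the last pair WT 2 and E2A-/- 2, the arrays of high actin ratio, were the lowest of their groups, and the Lyl1-/- values lay inside the WT range. The mean over the 4 probe sets differed by -0.15 in Lyl1-/- cells (limma adjusted p = 0.828). In RefSeq the gene also holds the hairpins of Mir25, Mir93 and Mir106b on its own strand; which part of the transcript each probe set reads was not analysed here.

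**Figure D3:**
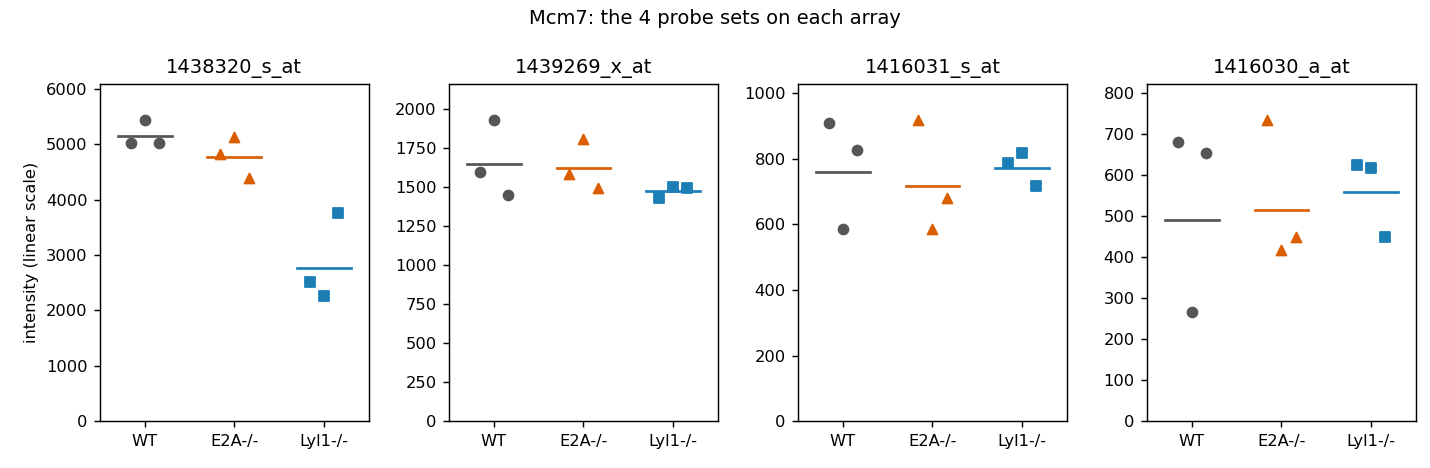
Intensity on a linear scale (vertical axis) of the 4 Mcm7 probe sets, 1 panel each, by genotype; each symbol is 1 array and lines are geometric means of the 3 arrays. The Lyl1-/- arrays lie below WT on 1438320_s_at (2504, 2265 and 3749) and inside the WT range on 1416031_s_at and 1416030_a_at.

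The other 5 ring subunits showed no such gap. Mcm4 read 1692, 1785 and 1806 in WT, 2001, 2921 and 2263 in E2A-/- and 2049.8, 1676 and 2266 in Lyl1-/- cells. All 3 E2A-/- arrays were above WT, with E2A-/- 2 the highest, at a difference of 0.42 (SE 0.178) and a limma adjusted p of 0.571, and Lyl1-/- stood at 0.17. Without E2A-/- 2 the E2A-/- difference was 0.27. A second Mcm4 probe set, 1416214_at, had 0.21 and -0.025. Mcm2 read 1257, 1230.5 and 1299.8 in WT, 1504, 1320.3 and 1173 in E2A-/- and 1337, 1234 and 1071 in Lyl1-/- cells, with differences of 0.080 and -0.053 and overlapping groups. A dimmer Mcm2 probe set, 1448777_at, gave 0.30 and 0.37, with WT 2 at 344 against 642 and 611 on the other WT arrays. Mcm6 read 2063, 2145 and 2034 in WT, 2087, 2243 and 2589 in E2A-/- and 2239, 1930.5 and 2408 in Lyl1-/- cells, at 0.13 and 0.059. Its probe set 1416251_at had the opposite sign, -0.22 and -0.11, with WT 2 at 1744 against 2544 and 2404 on the other WT arrays. Mcm3 and Mcm5 lay within 0.14 of WT in both knockouts at their brightest probe sets. Over its 5 probe sets Mcm3 ran from 0.012 to 0.37 in E2A-/- and from 0.062 to 0.29 in Lyl1-/- cells. A dimmer Mcm5 probe set, 1415945_at, read 336, 249.1 and 319 in WT, 342, 239.9 and 255 in E2A-/- and 428, 399 and 335 in Lyl1-/- cells, a difference of 0.43 in Lyl1-/- cells where the bright one gave 0.078.

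Of the loading factors, Cdt1 stayed nearest to WT. Cdt1, which brings the Mcm ring to the origin, read 2673, 2577 and 2692 in WT, 2632, 2409 and 2707 in E2A-/- and 2829, 2736 and 2425 in Lyl1-/- cells. The groups overlapped, and the 95% intervals were -0.27 to 0.21 in E2A-/- and -0.23 to 0.26 in Lyl1-/- cells. A second Cdt1 probe set, 1424144_at, had differences of 0.037 and 0.15. Cdc6, the ATPase that recruits Cdt1, stood at 0.17 and 0.28; its Lyl1-/- arrays read 305, 305 and 306 against 268, 245 and 250.2 in WT (limma adjusted p = 0.762).

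Promoters are shown for members picked because their letters illustrate the E2F motif (Mcm6, Mcm5 and Mcm7) and for E2f2 and Mcm10, which lay above WT in both knockouts. They come from RefSeq and hold the 250 bases before the annotated start site, in the direction of the gene. Capitals mark E2F words (TTTCCCGC, TTTCGCGC, TTTGCCGC or TTTGGCGC on either strand) and E-boxes (CANNTG, which reads alike on both strands), the class of motif that E2A dimers bind. Overlapping words are counted each. Mcm7 and E2f2 each have a further promoter window, which held no E2F word, and the window with more E2F words is shown.
Mcm6, GRCm38.p6, chr1:128359706-128359955, minus strand: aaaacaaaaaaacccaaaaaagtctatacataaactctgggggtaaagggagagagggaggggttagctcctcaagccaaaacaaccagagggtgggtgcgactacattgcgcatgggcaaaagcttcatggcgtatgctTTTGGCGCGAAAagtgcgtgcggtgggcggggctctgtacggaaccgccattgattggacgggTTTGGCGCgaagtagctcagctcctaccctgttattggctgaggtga
Mcm5, GRCm38.p6, chr8:75109259-75109508, plus strand: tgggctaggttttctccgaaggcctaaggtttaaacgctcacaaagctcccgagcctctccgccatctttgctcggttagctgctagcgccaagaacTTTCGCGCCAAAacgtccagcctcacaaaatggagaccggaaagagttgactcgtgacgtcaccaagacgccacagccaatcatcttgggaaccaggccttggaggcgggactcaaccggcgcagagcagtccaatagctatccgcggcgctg
Mcm7, GRCm38.p6, chr5:138171884-138172133, minus strand: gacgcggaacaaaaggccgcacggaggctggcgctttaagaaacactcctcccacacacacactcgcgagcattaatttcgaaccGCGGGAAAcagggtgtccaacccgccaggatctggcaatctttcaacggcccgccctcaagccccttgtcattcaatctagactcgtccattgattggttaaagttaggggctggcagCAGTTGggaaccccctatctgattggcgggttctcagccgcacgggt
E2f2, GRCm38.p6, chr4:136172024-136172273, plus strand: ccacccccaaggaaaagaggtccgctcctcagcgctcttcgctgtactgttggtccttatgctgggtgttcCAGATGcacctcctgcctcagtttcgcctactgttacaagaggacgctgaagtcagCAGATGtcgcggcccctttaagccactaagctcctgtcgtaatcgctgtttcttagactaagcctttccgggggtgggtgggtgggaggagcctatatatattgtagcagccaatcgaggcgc
Mcm10, GRCm38.p6, chr2:5012792-5013041, minus strand: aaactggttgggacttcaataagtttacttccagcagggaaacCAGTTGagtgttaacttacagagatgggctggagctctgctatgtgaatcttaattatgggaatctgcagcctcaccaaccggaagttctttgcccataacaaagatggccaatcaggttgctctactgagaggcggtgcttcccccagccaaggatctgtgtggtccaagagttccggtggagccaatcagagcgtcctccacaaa

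Mcm6 carried 3 E2F words in this stretch, counted in bases from the start site: 1 at -110 and 1 at -47 on the gene's strand, and 1 on the other strand at -106 that overlaps the one at -110. Mcm5 carried 2 overlapping words, at -153 on the gene's strand and at -149 on the other, and Mcm7 1 word at -165 and an E-box at -47. E2f2 held 2 E-boxes with the letters CAGATG at -179 and -123, and its 1 E2F word lies past the start site, outside the printed stretch; Mcm10 held 1 E-box at -207. Of the 34 members, 30 have a promoter in the table, with windows of 300 bases that reach 50 bases past the start. The 30 include Chaf1a, which was not tested on the arrays and has 0 E2F words, 1 E-box and 1 CCAAT. An E2F word occurred in 11 of the 30 (36.7%), against 4.66% of the 9713 tested genes with a promoter and 2.6% of all 27025 genes in the table. At least 2 words occurred in 5 members, Mcm3, Mcm5, Mcm6, Mcm7 and Rfc3, and in 0.237% of the tested genes. For Mcm7 the window of 300 bases holds 2 words and 2 E-boxes, of which the printed stretch shows 1 each. E-boxes occurred in 18 of 30 members (60.0%) and in 68.0% of tested genes, and CCAAT, on either strand, in 18 of 30 members and in 42.4% of tested genes. These are letter matches and not measured binding sites. Members with 2 or more E2F words did not share a difference here, at 0.079, -0.019, 0.13, -0.13 and -0.019 in E2A-/- cells for Mcm3, Mcm5, Mcm6, Mcm7 and Rfc3.

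Among the genes that turn the licensed ring into a moving helicase, Mcm10 stood apart. Mcm10 stabilises the helicase as origins fire. It read 229, 248 and 229 in WT, 274, 291 and 297 in E2A-/- and 278, 307 and 292 in Lyl1-/- cells. All 6 knockout arrays lay above all 3 WT arrays. Differences were 0.27 (SE 0.0953) in E2A-/- and 0.29 (SE 0.0953) in Lyl1-/- cells, with limma adjusted p of 0.477 and 0.404. A second, dim probe set, 1433407_at, read 70.9 to 86.2 over all arrays and gave -0.071 and -0.062.

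The helicase cofactors overlapped WT. Cdc45 read 192, 150.0 and 189.7 in WT, 173, 160.3 and 161 in E2A-/- and 160.4, 183 and 180.2 in Lyl1-/- cells, with WT 2 the lowest array of all, at -0.041 and 0.041. Gins1, a subunit of the GINS complex, read 419, 449 and 386 in WT, 462, 366 and 473 in E2A-/- and 501, 519 and 413 in Lyl1-/- cells, at 0.020 and 0.16. Its dimmer probe set 1457981_x_at gave 0.30 and 0.39. Gins2, in the same complex, stood at 0.14 and 0.15, and its second probe set had the same signs.

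Of the 9 genes of the replication fork, 3 were above WT in E2A-/- and 5 in Lyl1-/- cells. Between the knockouts all 9 were lower in E2A-/- cells, at a median difference of -0.068, and none passed the threshold. Without E2A-/- 3 the count was 3 of 9 and without Lyl1-/- 2 it was 5 of 9; with quantile normalization it was 7. Fen1, the nuclease that trims Okazaki fragments, read 1730.0, 1841 and 1703 in WT, 1618, 2178 and 1618 in E2A-/- and 1902, 1936 and 1729 in Lyl1-/- cells. Its groups overlapped, and differences were 0.0072 (SE 0.144) and 0.060 (SE 0.144). Rfc3 and Rpa2 carried wide spreads within groups. Rfc3, a clamp loader subunit, read 189, 121 and 189.5 in WT, 170.3, 146 and 133 in E2A-/- and 154, 188 and 115 in Lyl1-/- cells, and Rpa2, of the single-strand binding complex, 788, 527 and 771 in WT, 847, 505 and 588 in E2A-/- and 765, 869 and 617 in Lyl1-/- cells. In both, WT 2 was well below the other WT arrays, E2A-/- 2 and 3 were below E2A-/- 1, and Lyl1-/- 3 was below the other Lyl1-/- arrays. Pcna, the sliding clamp, had the same order of arrays within E2A-/- as Lig1 and Rrm1, E2A-/- 1 highest and E2A-/- 3 lowest. It read 2074, 1744 and 2175 in WT, 1966, 1581 and 1434 in E2A-/- and 1669.7, 2181 and 1411 in Lyl1-/- cells.

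Lig1, the ligase that seals Okazaki fragments, was lowest on E2A-/- 2 and 3. Its values were 845, 804 and 809 in WT, 841, 623 and 535 in E2A-/- and 762, 733 and 652 in Lyl1-/- cells. E2A-/- 1 lay within the WT range, and the difference of -0.32 (SE 0.177) had a limma adjusted p of 0.712. Without the lower arrays, E2A-/- 2 and 3, the difference was 0.046, on a single E2A-/- array. E2A-/- 2 and 3 carried granulocyte transcripts, and E2A-/- 2 also had a high actin ratio and Xist signal. The part of these in the Lig1 values was not tested. The Lyl1-/- arrays all lay below WT, at -0.19. Rfc4, a further clamp loader subunit, read 419, 494 and 397 in WT, 395, 383 and 506 in E2A-/- and 530.1, 575 and 505 in Lyl1-/- cells. All 3 Lyl1-/- values were above WT, at 0.26 (0.39 without WT 2), and the difference between the knockouts was -0.34 (SE 0.132), with a limma adjusted p of 0.523. Both Rfc4 probe sets had that direction, the second at -0.22 in E2A-/- and 0.21 in Lyl1-/- cells. The primase subunit Prim1 stood at -0.15 and -0.12, the polymerase gene Pola1 at 0.0032 and 0.078, and Rfc5 at 0.043 and 0.082.

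In nucleotide supply the largest differences were in Rrm2 and Tk1. Rrm2 encodes the S phase subunit of ribonucleotide reductase. It read 636, 741 and 627 in WT, 731, 1119 and 1254 in E2A-/- and 932, 910.4 and 1056 in Lyl1-/- cells. E2A-/- 1 lay inside the WT range, E2A-/- 2 and 3 above it, and all 3 Lyl1-/- arrays above it. Differences were 0.56 (SE 0.213) and 0.49 (SE 0.213), with limma adjusted p of 0.53 and 0.564. Without E2A-/- 2 and 3 the first was 0.095. Of the other probe sets, 1448226_at gave 0.57 and 0.43 and 1416120_at 0.10 and 0.086. Rrm1, the large subunit of the same enzyme, did not go with it. It read 978, 758 and 972 in WT, 969.8, 689 and 592 in E2A-/- and 722, 995 and 801 in Lyl1-/- cells, at -0.23 and -0.047. The first was -0.41 without WT 2 and -0.073 without E2A-/- 3.

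Tk1, thymidine kinase, had the widest spread among the members, a within-group SD of 0.49 log2 units against a member median of 0.168. Its values were 593, 272 and 540.2 in WT, 788, 469 and 489 in E2A-/- and 755, 798 and 474 in Lyl1-/- cells. WT 2 was the lowest array by far, so differences of 0.53 (SE 0.361) and 0.75 (SE 0.361) come from groups that overlap. Without WT 2 they were -0.0015 and 0.22. Dut, which keeps uracil out of DNA, read 968, 955 and 978 in WT, 1110.1, 1173 and 805 in E2A-/- and 863, 969.5 and 845 in Lyl1-/- cells, at 0.075 and -0.11. Tyms, thymidylate synthase, was dim on this platform, at 73.3 to 89.1 over all arrays against array medians of 77.9 to 79.3, so its differences of 0.020 and 0.026 are near background.

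Among the cyclin and E2F genes of the G1 to S step, Ccne2 and E2f2 read higher in both knockouts than in WT. Ccne2 encodes cyclin E2, a partner of Cdk2. Its intensity was 76.4, 78.4 and 81.1 in WT, 99.97, 114 and 126 in E2A-/- and 93.9, 115 and 108 in Lyl1-/- cells. All 6 knockout arrays were above the WT arrays. The WT values lay at about the array median, where a constant under all intensities understates differences; these were 0.52 (SE 0.128) in E2A-/- and 0.42 (SE 0.128) in Lyl1-/- cells. Limma adjusted p was 0.238 and 0.373, and over the alternatives it stayed between 0.0633 and 0.999 in E2A-/- cells. With the lowest intensity of each array subtracted and 16 added, the difference in E2A-/- cells was 0.73. A filter on all 9 arrays drops Ccne2. Under the other 23 alternatives neither difference moved by more than 1.5 times nor passed the threshold. With no filter limma adjusted p was 0.268 and 0.416. Alternatives that keep the filter do not check the entry of Ccne2, which passed it only through its knockout values. Ccne2 has no second probe set on the array under its symbol.

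E2f2 encodes an activating E2F factor. It read 107, 90.01 and 104 in WT, 124, 124 and 133 in E2A-/- and 115, 131 and 123 in Lyl1-/- cells, so that the 6 knockout arrays again lay above WT, with WT 2 the lowest. Differences were 0.38 (SE 0.108) and 0.33 (SE 0.108), with limma adjusted p of 0.343 and 0.399. Without WT 2 they were 0.26 and 0.22. Its second probe set, 1455790_at, gave 91.3, 98.03 and 95.3 in WT, 107, 118 and 191 in E2A-/- and 96.9, 104 and 99.6 in Lyl1-/- cells. On that one E2A-/- 3 carried most of the E2A-/- difference of 0.49, and Lyl1-/- stood at 0.066. On E2A-/- 1 and Lyl1-/- 3, where the median of the mature granulocyte list was 0.020 and -0.14 relative to WT, Ccne2 stood at 0.35 and 0.46 above the WT mean, E2f2 at 0.35 and 0.33, and Mcm10 at 0.20 and 0.29. On the same arrays the granulocyte and monocyte progenitor list stood at 0.56 and 0.014 and 9 erythroid genes at 0.26 and -0.083, and the part of other cells in these differences was not tested.

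Their close relatives Ccne1 and E2f1 overlapped WT. Ccne1, cyclin E1, read 183, 178 and 178 in WT, 178, 226 and 213 in E2A-/- and 185, 177 and 145 in Lyl1-/- cells, at 0.19 and -0.088. E2f1 read 154, 139.8 and 149.8 in WT, 156, 127 and 153 in E2A-/- and 146, 156 and 166 in Lyl1-/- cells, at -0.013 and 0.094. The differences of Ccne2 and Ccne1, or of E2f2 and E2f1, were not tested against each other.

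**Figure D4:**
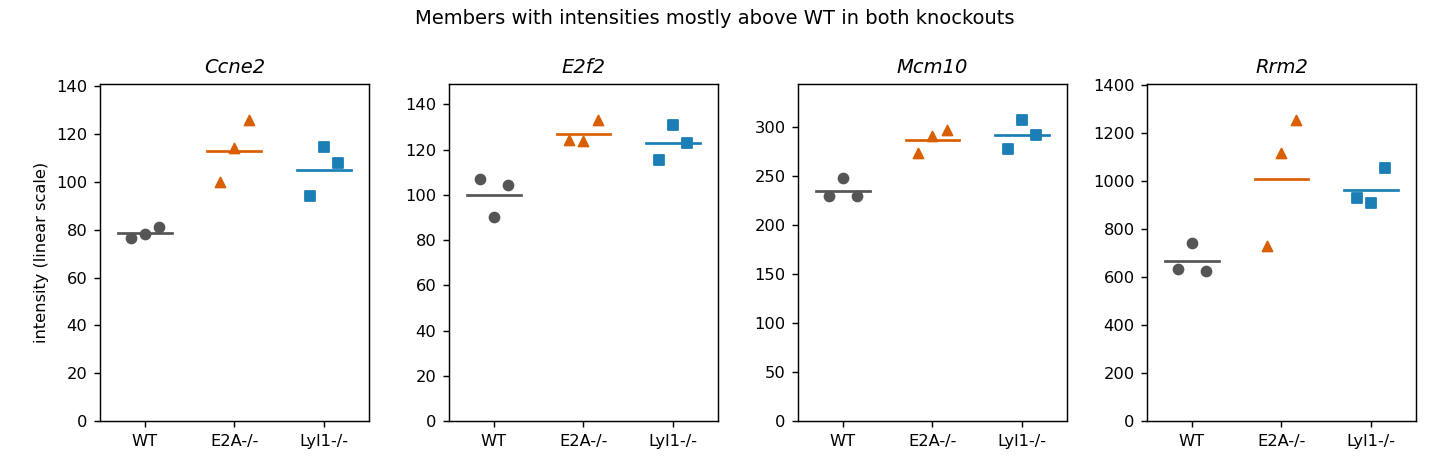
Intensity on a linear scale (vertical axis) of Ccne2, E2f2, Mcm10 and Rrm2 by genotype; each symbol is 1 array and lines are geometric means of the 3 arrays. In the first 3 panels the knockout arrays lie above all WT arrays; in the Rrm2 panel E2A-/- 1 (731) lies below WT 2 (741).

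Chromatin and histone supply was measured through 3 genes. Uhrf1, which guides DNA methylation to new strands, read 375, 328 and 334 in WT, 315, 444 and 325 in E2A-/- and 411, 450.5 and 387 in Lyl1-/- cells. The Lyl1-/- arrays lay above WT, at 0.28 (SE 0.157), and of the E2A-/- arrays E2A-/- 2 alone did. Its second probe set, 1415811_at, lay within 0.1 of WT in both knockouts. Slbp, which binds histone mRNA, read 251, 247 and 239.8 in WT, 258, 369 and 280.2 in E2A-/- and 221, 305 and 226 in Lyl1-/- cells, at 0.28 (SE 0.186) and 0.011 (SE 0.186). All 3 E2A-/- arrays were above WT on that probe set, and without E2A-/- 2 the difference was 0.13. On 1430058_at the difference had the other sign, -0.20. Chaf1b, of chromatin assembly factor 1, stood at -0.13 and 0.15.

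Several probe sets of 1 gene did not always have the same sign. Of 25 members with more than 1 probe set bright enough to pass the filter, 11 had probe sets of opposite sign in E2A-/- cells, 11 in Lyl1-/- cells, and 9 kept a single sign in both. These 9 were E2f2, Fen1, Gins1, Gins2, Mcm3, Mcm5, Prim1, Rfc4 and Rrm2. The share over all genes with several probe sets was not analysed here, so these counts are not particular to the members. Some opposite signs were of values near 0, such as -0.028 and 0.037 for Cdt1 in E2A-/- cells. WT 2 lay more than 0.5 log2 units below the mean of WT 1 and WT 3 on 11 of 65 measured member probe sets (16.9%), against 3.78% of all measured probe sets with 1 gene. Of these 11, 4 were chosen probe sets and 7 were not. With the actin ratio as a covariate the member medians were 0.024 in E2A-/- and 0.070 in Lyl1-/- cells, and no member passed.

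Other genes of DNA replication and its control, 77 in a list of origin, polymerase, repair-linked and E2F pathway genes, gave 76 in the annotation, all tested. By limma over all genes 0 of them passed in any comparison. With an unadjusted p under 0.05, 2 were higher and 1 lower in E2A-/- cells (3.22% and 5.36% of all tested genes), and 7 higher and 3 lower in Lyl1-/- cells (3.78% and 5%). Between the knockouts 1 was higher and 7 were lower in E2A-/- than in Lyl1-/- cells (3.85% and 4.8%). Pold3, a polymerase delta subunit, was higher than WT on all 6 knockout arrays. It read 475, 351 and 502 in WT, 666, 629.5 and 570.4 in E2A-/- and 534, 662 and 579 in Lyl1-/- cells, at 0.58 and 0.51 (limma adjusted p = 0.301 and 0.392). Without WT 2 these were 0.35 and 0.27, and on its brightest probe set without an _x_at or _s_at suffix 0.072 and 0.10. The replisome gene Wdhd1 stood at 0.42 in E2A-/- cells (0.26 without WT 2), and the polymerase delta gene Pold2 at -0.58 (-0.059 without E2A-/- 2 and 3).

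Between the knockouts, the genes of smallest p in this list had their higher values in Lyl1-/- cells. Tfdp1, the DNA-binding partner of E2F factors, read 357, 391 and 367 in WT, 435, 467 and 396 in E2A-/- and 519, 521 and 553 in Lyl1-/- cells. It stood at 0.50 against WT (limma adjusted p = 0.188) and the difference of E2A-/- from Lyl1-/- was -0.30. With all 9 arrays separate the adjusted p against WT was 0.0351. Ccnd3, cyclin D3, read 259.9, 208 and 270.4 in WT, 255, 204 and 273 in E2A-/- and 438, 367 and 336 in Lyl1-/- cells, at 0.68 against WT and -0.64 for E2A-/- minus Lyl1-/-. With the mean of its probe sets these were 0.11 and -0.14. Ccna2, cyclin A2 of S and G2 phase, stood at 0.25 and -0.37 in the same comparisons, and Rnaseh2c, a subunit of ribonuclease H2, at 0.39 and -0.45. Adjusted p between the knockouts was 0.314 for Ccnd3, 0.374 for Ccna2, 0.42 for Tfdp1 and 0.42 for Rnaseh2c, by limma.

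Array by array, the members' median relative to the WT mean was 0.12, 0.052 and -0.071 on E2A-/- 1, 2 and 3 and 0.10, 0.21 and -0.039 on the Lyl1-/- arrays. The WT arrays lay between -0.011 and 0.0080, measured from their own mean, so this range understates the spread between arrays. The knockout arrays lay on both sides of the WT mean, and each knockout had replicate 3 below 0. On those arrays the other replication genes stood at 0.070, 0.020 and -0.11 and at 0.074, 0.11 and 0.0046. The 26 tested genes of G2 and M phase stood at -0.060, -0.075 and -0.0065 in E2A-/- and 0.044, 0.15 and 0.11 in Lyl1-/- cells, with WT 2 at -0.071 and the other WT arrays at 0.066 and 0.073. In the E2A-/- arrays 12 CDK inhibitor and antiproliferative genes lay at 0.13, 0.29 and 0.19, and in Lyl1-/- at -0.043, 0.050 and 0.034. One of them, Cdkn1a, an inhibitor of cyclin-dependent kinases and of Pcna, passed the threshold in Lyl1-/- cells, at 1.02 (limma adjusted p = 0.0477, range over the alternatives 0.00696 to 0.585). It read 119, 115 and 119 in WT, 145, 150.1 and 151 in E2A-/- and 272, 254 and 192 in Lyl1-/- cells, and the call was lost without WT 2, without any single E2A-/- array and without Lyl1-/- 1 or 2. By role, the 4 genes of the G1 to S step stood at 0.22, 0.34 and 0.35 in E2A-/- and 0.15, 0.26 and 0.26 in Lyl1-/- arrays. Ccne2, which entered the test only through its high knockout values, is among the 4. Of the others, E2f2 stood at 0.35, 0.34 and 0.45 in E2A-/- and 0.24, 0.43 and 0.33 in Lyl1-/- arrays. On the same arrays Ccne1 stood at -0.012, 0.34 and 0.25 and at 0.051, -0.014 and -0.30. E2f1 stood at 0.096, -0.20 and 0.069 and at 0.00099, 0.095 and 0.19. Fork genes stood at 0.046, -0.21 and -0.18 and 0.025, 0.23 and -0.055, with E2A-/- 2 and 3 lowest, the arrays on which mature granulocyte genes lay at 3.16 and 3.35; their part in the fork gene values was not tested. Without E2A-/- 2 and 3 the median of all members was 0.12, on a single E2A-/- array.

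**Figure D5:**
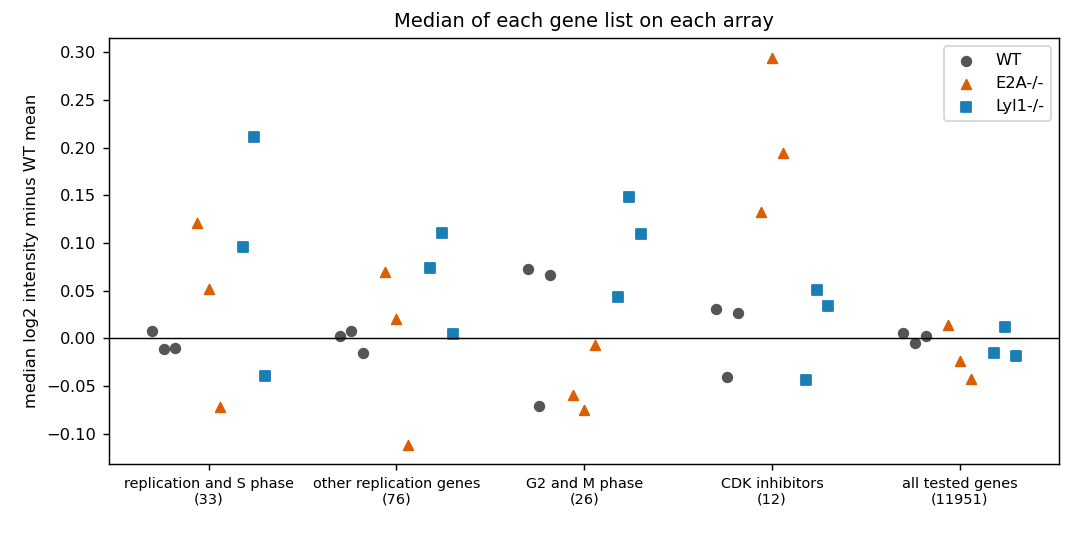
Median over the genes of a list of the log2 intensity minus the WT mean (vertical axis), for 5 lists (number of genes in brackets); each symbol is 1 array, circles WT, triangles E2A-/-, squares Lyl1-/-. Members span -0.071 to 0.21, with arrays of both knockouts above and below WT.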

How the data were processed

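RNA of 9 sorted samples (3 genotypes, 3 arrays each) was labelled for Affymetrix 3-prime arrays. The submitters' processing notes name RMA and the oligo package, without versions. The deposited values are 1 linear intensity per probe set and array, as the values show (lowest 42.1 to 45.1, medians 77.9 to 79.3). A constant thus lies under each value and differences of dim genes are understated. Log2 was taken without a pseudocount. Precision is limited by the number of arrays, and p-values measure the spread between these samples.

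Of 45101 probe sets, 64 controls were left out; the platform annotation gave 34945 probe sets 1 gene, 932 several and 9160 none. For each of 18193 genes the brightest probe set by mean log2 intensity was taken, and the 11951 genes exceeding the median of the array on 3 or more arrays entered the test. Per the platform's naming, an _x_at or _s_at probe set can read other transcripts as well; 11 of the 33 members used one. WT 1 and WT 3 were averaged. The 3 genotypes were fitted together (8 samples, 5 residual degrees of freedom) with limma 3.58.1 in R 4.3.3, and p-values were adjusted over all tested genes (Benjamini-Hochberg) at a threshold of 0.05. The fit was tested on simulated data. The members, the lists and the tests were chosen with earlier results of these data known.

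Array values are given for up to 4 members of smallest p per comparison among those with no overlap of arrays, for the brightest of each role, and for those whose probe sets differ in sign. Rrm1, Rrm2, Tk1, Lig1, Rfc4, Pcna, Mcm5, Cdc6 and Cdkn1a were added after their values were seen where the rule did not name them. Of the other replication genes, the 3 of smallest p in a comparison are named. Promoters, hairpins and motif shares come from RefSeq (GRCm38.p6). Alternatives were other normalizations, filters, probe set choices, covariates, array weights and left-out arrays.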

Additional observations from a re-analysis of the deposited data

How the results depend on the processing

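No member passed the threshold in E2A-/- against WT under any of the 24 alternatives. In Lyl1-/- against WT 1 member, Mcm7, passed with all 9 arrays as separate samples (limma adjusted p = 0.0495), with array weights (0.0459) and without Lyl1-/- 3 (0.0172), so leaving out single arrays gave 0 to 1; between the knockouts it was 0 to 1 as well, Mcm7 again, without Lyl1-/- 3 (0.0248). The fits without Lyl1-/- 3 rest on Lyl1-/- 1 and 2, the closest pair of arrays after WT 1 and WT 3. Leaving out single arrays moved the member median between -0.011 and 0.063 in E2A-/- against WT, between 0.029 and 0.11 in Lyl1-/- against WT and between -0.085 and 0.0014 between the knockouts. Without E2A-/- 2 and 3 it was 0.12 against WT and 0.056 between the knockouts, fits with 1 E2A-/- array whose spread is taken from the other groups, as is that of WT where 1 WT sample is left. Of 1938 values of single genes under alternatives, 1789 kept their sign and their side of the threshold, 5 passed it (Mcm7 and, with 9 separate arrays, Tfdp1), 15 lost it (Cdkn1a) and 129 turned in sign, with 0 of these past the threshold; the causes were not tested. Ccne2 and Tyms had no value with a filter on all 9 arrays, and Tyms had none with probe sets averaged. With 9 separate arrays in E2A-/- cells Mcm3 was -0.019, Mcm5 0.012 and Pola1 -0.0030. With 9 separate arrays in Lyl1-/- cells Cdc45 was -0.017. With the replicate block in E2A-/- cells Mcm3 was -0.019, Mcm5 0.012 and Pola1 -0.0030. With the replicate block in Lyl1-/- cells Cdc45 was -0.017. With quantile normalization in E2A-/- cells E2f1 was 0.030, Rfc3 0.015 and Fen1 -0.014. With quantile normalization in Lyl1-/- cells Cdt1 was -0.011. With the lowest intensity subtracted and 16 added in E2A-/- cells Pola1 was -0.0011. With probe sets averaged in E2A-/- cells Mcm5 was 0.018, Mcm6 -0.019, Mcm7 0.023, Cdc45 0.022, Cdt1 0.016, Rpa2 0.022 and Uhrf1 -0.016. With probe sets averaged in Lyl1-/- cells Mcm2 was 0.16, Mcm6 -0.015, Rrm1 0.062, Rfc3 0.033, Pola1 -0.013 and Slbp -0.10. With array weights in E2A-/- cells Gins1 was -0.0014 and Rfc3 0.0017. With array weights in Lyl1-/- cells Rfc3 was 0.071. With the actin ratio as a covariate in E2A-/- cells Mcm5 was 0.0046 and Gins1 -0.0041. With the actin ratio as a covariate in Lyl1-/- cells Mcm3 was -0.092, Cdc45 -0.038, Cdt1 -0.043, Chaf1b -0.0100 and Rpa2 -0.064. With sex as a covariate in E2A-/- cells Tyms was -0.019, E2f1 0.058, Rfc5 -0.013, Pola1 -0.014, Fen1 -0.089 and Uhrf1 -0.039. With sex as a covariate in Lyl1-/- cells Mcm3 was -0.012, Mcm5 -0.056, Cdt1 -0.0014, Tyms -0.053, Rfc5 -0.031, Fen1 -0.13 and Slbp -0.21. Without E2A-/- 2 and 3 in E2A-/- cells Mcm6 was -0.0063, Cdc45 0.028, Cdt1 0.0014, Pcna 0.031, Rrm1 0.17, Tyms -0.071, Ccne1 -0.012, E2f1 0.10, Chaf1b 0.33, Rfc3 0.17, Rpa2 0.40, Fen1 -0.14, Lig1 0.046 and Uhrf1 -0.11. Without WT 2 and E2A-/- 2 in E2A-/- cells Mcm3 was -0.17, Mcm5 0.0074, E2f1 0.023, Chaf1b 0.065, Rfc4 0.13, Pola1 -0.040, Fen1 -0.085, Uhrf1 -0.15 and Dut -0.042. Without WT 2 and E2A-/- 2 in Lyl1-/- cells Mcm3 was -0.16, Cdc45 -0.13, Cdt1 -0.014 and Rpa2 -0.069. With the brightest probe set lacking an _x_at or _s_at suffix, chosen after seeing the data, in E2A-/- cells Mcm6 was -0.22, Mcm7 0.29 and Ccne1 -0.0075. With the brightest probe set lacking an _x_at or _s_at suffix, chosen after seeing the data, in Lyl1-/- cells Mcm2 was 0.37, Mcm4 -0.025, Mcm6 -0.11 and Mcm7 0.40. With the brightest probe set lacking an _x_at or _s_at suffix, chosen after seeing the data, between the knockouts Mcm7 was -0.11. Leaving out single arrays turned the sign of further values, and their ranges were as follows. In E2A-/- cells Pola1 ran from -0.062 to 0.093, Mcm3 from -0.21 to 0.24, Mcm5 from -0.086 to 0.075, Tk1 from -0.0015 to 0.66 and Rfc4 from -0.21 to 0.058. In E2A-/- cells Gins1 ran from -0.047 to 0.14, Tyms from -0.024 to 0.069, Mcm2 from -0.011 to 0.17, Rfc5 from -0.029 to 0.17 and Cdt1 from -0.062 to 0.022. In E2A-/- cells E2f1 ran from -0.073 to 0.083, Chaf1b from -0.36 to 0.041, Rpa2 from -0.30 to 0.14, Fen1 from -0.14 to 0.079 and Uhrf1 from -0.093 to 0.15. In E2A-/- cells Dut ran from -0.029 to 0.24 and Rfc3 from -0.34 to 0.063. In Lyl1-/- cells Mcm3 ran from -0.16 to 0.33, Cdc45 from -0.13 to 0.10, Cdt1 from -0.030 to 0.081, Rpa2 from -0.069 to 0.35 and Tyms from -0.039 to 0.10. In Lyl1-/- cells Slbp ran from -0.14 to 0.095, Rrm1 from -0.23 to 0.055, Rfc5 from -0.0049 to 0.14, Mcm2 from -0.13 to 0.034 and Mcm6 from -0.012 to 0.15. In Lyl1-/- cells Ccne1 ran from -0.16 to 0.018 and Rfc3 from -0.34 to 0.17. In the labels same-numbered arrays share a number, and whether they were processed together is not given. Correlations of their deviations ran from -0.14 to 0.22, so not every array deviates with its number. Those of replicate 1 were 0.22, 0.12 and 0.077, and WT 2 and E2A-/- 2 shared a high actin ratio (10.6 and 10.1). With the replicate number as a block on 9 separate arrays 0 members passed in each comparison, with medians of 0.036, 0.074 and -0.043, while all genes called numbered 60, 55 and 13. Over all alternatives these counts ran from 6 to 97 (27 in the reported fit), from 7 to 93 (23) and from 3 to 23 (14).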
